A study of Mus musculus with 15 samples.

Results

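The genes described here control the passage of cells through G1, the growth phase before DNA replication. They are the D-type cyclin genes Ccnd1, Ccnd2 and Ccnd3, the E-type cyclin gene Ccne1, the kinase genes Cdk4 and Cdk6, and the kinase inhibitor genes Cdkn1a, Cdkn1b and Cdkn2c. They were taken from a list of 10 names, by keeping probe sets assigned to that gene alone. Of the 10, 9 had such a probe set, each of them exactly 1, among 22180 genes measured in this way. The remaining one, Ccne2, was represented only by a probe set that is also assigned to Ints8, so no value is given for it. All 9 exceeded the filter on low values, which left 15468 genes tested.

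The cells were RAW264.7, a transformed mouse macrophage line that divides in culture, and not resting tissue macrophages. Whether the cells of each group were still dividing at harvest was not tested. There were 5 groups of 3 arrays. All received a 0.1% ethanol vehicle, with or without test compounds, for 30 min. The group without LPS then received buffer in place of it. The other 4 groups were exposed to lipopolysaccharide (LPS, a Gram-negative bacterial membrane component sensed through a Toll-like receptor) at 1.0 µg/mL, after vehicle alone, 5.0 µM 13-HDHEA, 5.0 µM 16-HDHEA, or a mixture with 2.5 µM of each, called the combined treatment here. 13-HDHEA and 16-HDHEA are hydroxydocosahexaenoyl ethanolamides, positional isomers with the hydroxyl group on a different carbon. Cells were harvested at 24 h. The labels tie each replicate number to 1 of 3 experiments, so that arrays of the same number are paired.

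In G1, mitogens such as macrophage colony-stimulating factor induce D-type cyclins, which bind Cdk4 or Cdk6. These kinases phosphorylate the retinoblastoma family of pocket proteins, which releases E2F transcription factors and allows the transcription of cyclin E and of the DNA replication machinery, and cyclin E with Cdk2 then completes the commitment to S phase. Inhibitors of the INK4 family, such as the p18 protein encoded by Cdkn2c, bind Cdk4 and Cdk6 directly. Those of the Cip/Kip family, p21 (Cdkn1a) and p27 (Cdkn1b), act on cyclin-kinase complexes, above all those with Cdk2. Proliferation arrest is a known part of the macrophage response to LPS.

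The log2 values, taken as deposited, had array medians of 3.62 to 3.69, and the 3 arrays without LPS separated from the other 12 on the first principal component (63.8% of the variance). Of 12 macrophage markers all were tested, and Cd68 (12.4 to 12.5 as group means), Lyz2 (11.83 to 12.03) and Itgam (11.61 to 11.77) were high in every group. Others of the 12 moved with LPS and vehicle. The F4/80 gene Adgre1 rose from a log2 level of 6.04 to 10.54, or 22.6-fold, the receptor genes Mertk and Cd14 rose by 1.36 and 0.30 on the log2 scale, and Tyrobp and Csf1r fell by 0.37 and 0.24. The mean log2 value over these 12 markers ran from 9.58 to 9.75 without LPS and from 10.01 to 10.14 with LPS and vehicle. Markers of other cell types had list means between 2.81 and 4.38 on all arrays. With LPS, S100a8 (log2 difference 1.30), Pdgfra (0.96) and Cdh5 (0.42) rose among them and Vwf fell by 0.49. Their part in the results was not tested. In these bulk samples, fewer cells in a phase of the cycle and less RNA per cell cannot be told apart.

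The effect of LPS on the G1 genes was measured first, with vehicle on both sides. Ccnd1 and Cdkn2c fell most, by 3.87-fold and 7.16-fold, and Ccne1 and Cdk4 fell by 1.53-fold and 1.38-fold. Cdkn1a rose by 1.30-fold. Thus 4 of 9 genes fell and 1 rose at an adjusted p under 0.05 in limma, and 4 did not pass. Among all genes tested, 16.3% fell and 13.5% rose (29.8% changed in either direction). The median log2 difference of the 9 genes was -0.18, against 0.00 over all genes tested, and single genes ran from -2.84 to 0.72.

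**Figure D1:**
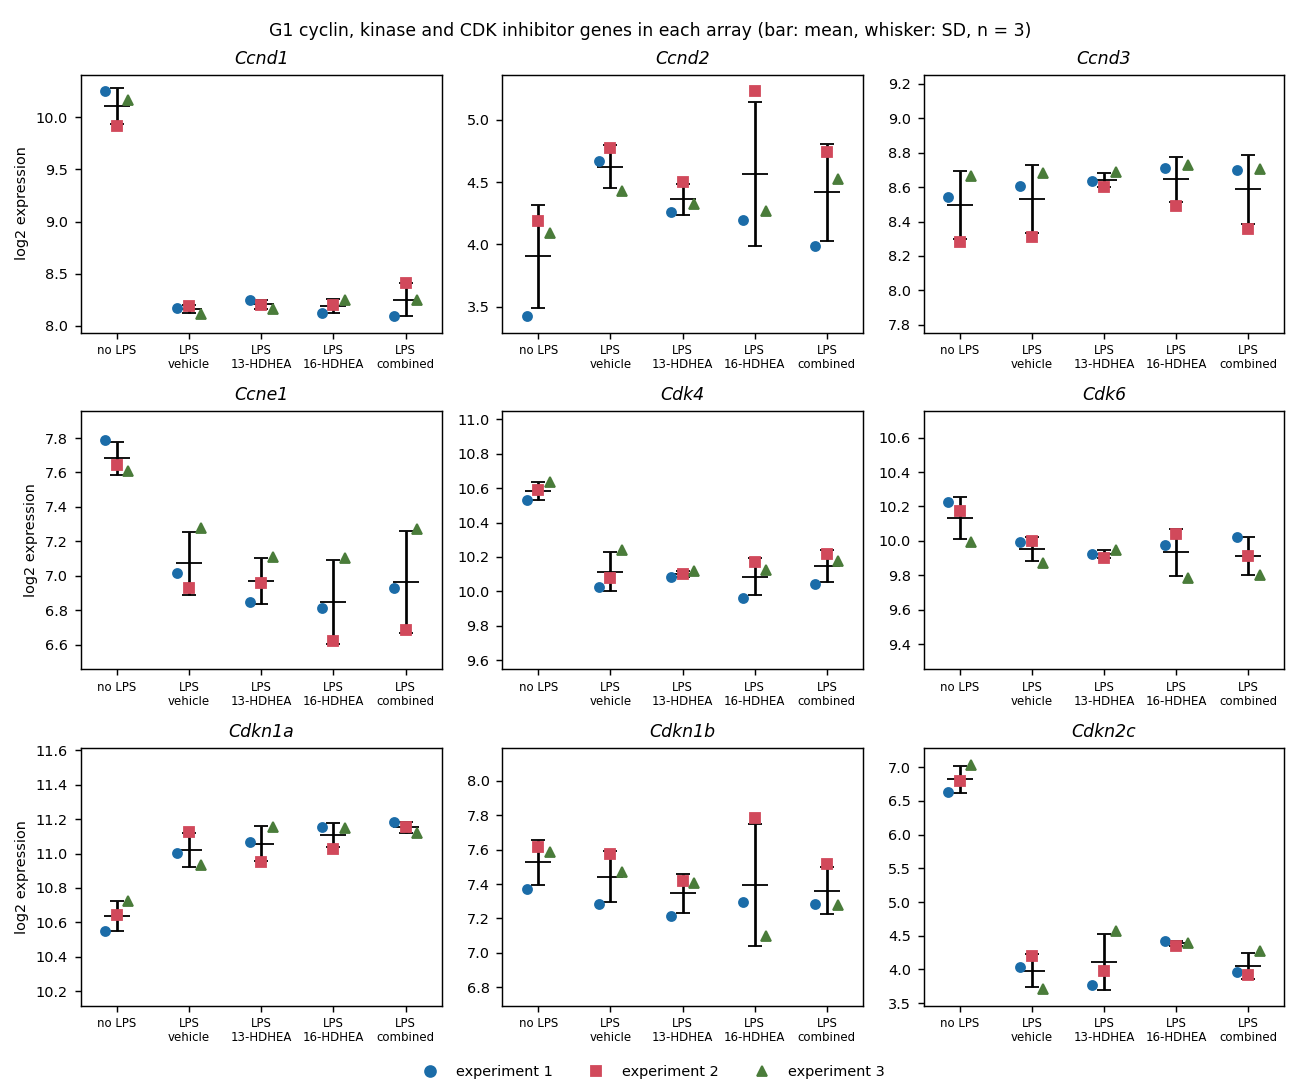
Log2 expression (y axis) of each of the 9 genes in the 5 groups (x axis), with 1 symbol per experiment, bars for the mean and whiskers for the SD of 3 arrays. The y axes differ in position, and in length for Ccnd1, Ccnd2 and Cdkn2c. Ccnd1, Ccne1, Cdk4 and Cdkn2c were lower and Cdkn1a was higher on all 12 arrays with LPS than on any array without it, and the 4 groups with LPS lay close together.

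The D-type cyclin genes moved apart from one another. Ccnd1 (Entrez gene 12443, chromosome 7, GRCm38.p6 144929931 to 144939831) encodes cyclin D1, the D-type cyclin that responds most directly to mitogens in many cells. Its log2 values without LPS were 10.25, 9.92 and 10.16 in experiments 1 to 3, and with LPS and vehicle they were 8.17, 8.19 and 8.11. The groups did not overlap, and the difference exceeded the spread within either group many times over. The mean fell from 10.11 ± 0.171 (SD, n = 3) to 8.16 ± 0.0386, a log2 difference of -1.95 (SE 0.097, adjusted p = 4.2e-09 in limma). By experiment it was -2.08, -1.73 and -2.05. Of the 15468 genes, 0.427% fell by more.

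Ccnd2 (Entrez gene 12444, chromosome 6, 127125162 to 127152188) encodes cyclin D2, and it was the only one of the 3 that was dim. Its arrays lay between percentiles 46.0 and 68.6 of all probe sets. Without LPS its log2 values were 3.43, 4.19 and 4.09, and with LPS and vehicle 4.66, 4.78 and 4.43. Every array with LPS and vehicle lay above those without LPS, although the array of experiment 1 without LPS stood well below the other 2. The log2 difference of 0.72 (SE 0.27, adjusted p = 0.059 in limma) did not pass, and it was positive in each experiment, at 1.24, 0.59 and 0.34. With experiment as a block in the fit, which uses the pairing, it passed (adjusted p = 0.0104). Leaving out the array of replicate 1 without LPS gave 0.48 (adjusted p = 0.238), and leaving out that of replicate 2 gave 0.86 (adjusted p = 0.0485).

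Ccnd3 (Entrez gene 12445, chromosome 17, 47505051 to 47599689), the gene of cyclin D3, was bright and its groups overlapped. Its log2 values were 8.54, 8.28 and 8.66 without LPS and 8.61, 8.31 and 8.68 with LPS and vehicle. The log2 difference was 0.04 (95% interval -0.24 to 0.32, adjusted p = 0.87 in limma), and 0.07, 0.03 and 0.02 by experiment. The interval leaves the pairing out, and it leaves room for a modest change in either direction only. The 3 D-type cyclin genes therefore gave a fall, a rise that passed only in the paired fit and in some other settings, and a difference near 0.

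Ccne1 (Entrez gene 12447, chromosome 7, 38097984 to 38107490) encodes cyclin E1, the partner of Cdk2 and itself an E2F target. Its log2 values were 7.79, 7.64 and 7.61 without LPS and 7.02, 6.93 and 7.28 with LPS and vehicle. The groups did not overlap, and the smallest step was in experiment 3. The log2 difference was -0.61 (SE 0.15, adjusted p = 0.0076 in limma).

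Of the 2 kinase genes, Cdk4 fell and Cdk6 did not pass. Cdk4 (Entrez gene 12567, chromosome 10, 127063535 to 127067288) had log2 values of 10.53, 10.59 and 10.63 without LPS and 10.02, 10.08 and 10.24 with LPS and vehicle. The groups did not overlap, and the log2 difference of -0.47 (SE 0.084, adjusted p = 0.00060 in limma) was similar in the 3 experiments, at -0.50, -0.51 and -0.39. Cdk6 (Entrez gene 12571, chromosome 5, 3341004 to 3531008) was at 10.23, 10.17 and 10.00 without LPS and at 9.99, 10.00 and 9.87 with LPS and vehicle. The groups touched, since the array of experiment 3 without LPS lay just under the highest vehicle array. The log2 difference of -0.18 (95% interval -0.38 to 0.02, adjusted p = 0.17 in limma, 0.0743 with experiment as a block) was negative in each experiment.

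The stretch before the Cdk4 start site is shown for its E-boxes, a motif added after the windows had been read. This promoter is known as a target of Myc-family factors, which bind the E-box. Their part in the fall of Cdk4 was not tested. The E-box CACGTG is in capitals, and the stretch is chr10:127063351-127063534 on the plus strand of GRCm38.p6, from the RefSeq start site. It reads 5′ to 3′:
Cdk4: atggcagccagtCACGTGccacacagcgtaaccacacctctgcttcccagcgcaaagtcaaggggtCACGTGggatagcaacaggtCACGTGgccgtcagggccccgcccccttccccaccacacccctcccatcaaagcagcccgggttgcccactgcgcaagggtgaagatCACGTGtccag
It holds 4 E-boxes, which begin between positions -172 and -11 from the start site. Of 32851 windows of 300 bases around start sites, 7.15% held at least 1, and the share that held 4 was not counted. A window of Cdk6 and a window of Cdkn2c held 1 E-box each, so the motif is not particular to Cdk4 among these genes. Myc itself was at 7.07 ± 0.418 (SD, n = 3) without LPS and 7.45 ± 0.311 with LPS and vehicle on the log2 scale. The difference of 0.38 did not pass (adjusted p = 0.22 in limma), and its sign varied, at 0.35, 1.1 and -0.32 in experiments 1 to 3.

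The inhibitor genes did not move as a group either. Cdkn2c (Entrez gene 12580, chromosome 4, 109660876 to 109666756) fell most of the 9 genes. Its log2 values were 6.64, 6.79 and 7.04 without LPS and 4.04, 4.19 and 3.71 with LPS and vehicle. The gap between the groups was wide, and the largest step was in experiment 3. The mean fell from 6.82 ± 0.202 (SD, n = 3) to 3.98 ± 0.246, a log2 difference of -2.84 (SE 0.18, adjusted p = 6.0e-08 in limma), rank 6 from the lowest of 15468 genes. Its arrays went from percentiles 78.4 to 80.9 of all probe sets without LPS to percentiles 51.5 to 62.8 on the 12 arrays with LPS. Near the dim end of an array, log2 differences are compressed, so the size of the fall is less certain than its direction.

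The region just before the Cdkn2c start site is given because this gene fell most. The capitals mark GC boxes, GGGCGG, which Sp1-family factors bind. The stretch is chr4:109666779-109666863 on the minus strand of GRCm38.p6 and is written 5′ to 3′ in the direction of the gene:
Cdkn2c: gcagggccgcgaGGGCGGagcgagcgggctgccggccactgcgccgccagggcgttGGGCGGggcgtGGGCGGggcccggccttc
It holds 3 GC boxes, which begin between positions -95 and -40 from the start site. Of all windows, 35.7% held at least 1, and the share that held 3 was not counted. The window around this start site was 73.3% G and C, against a median of 52.7% over all windows. GC boxes were also in windows of Ccne1, Cdk4, Ccnd3, Cdkn1a and Cdkn1b, so they are not particular to the gene that fell most. RefSeq lists a second start site of Cdkn2c inside the gene, and the probe set value does not say which of them was used.

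Cdkn1a (Entrez gene 12575, chromosome 17, 29090979 to 29100722), the p21 gene and a classical p53 target, was the one gene of the 9 that rose. Its log2 values were 10.55, 10.64 and 10.72 without LPS and 11.001, 11.13 and 10.93 with LPS and vehicle. The groups did not overlap, and the log2 difference was 0.38 (SE 0.082, adjusted p = 0.0026 in limma). By experiment, the rise was 0.45, 0.49 and 0.21. The gene was among the brightest on the array already without LPS, at percentile 98.0 or above. Cdkn1b (Entrez gene 12576, chromosome 6, 134920401 to 134925525), the p27 gene, overlapped in part, at 7.37, 7.62 and 7.59 without LPS and 7.28, 7.58 and 7.47 with LPS and vehicle. Its log2 difference was -0.08 (95% interval -0.41 to 0.24, adjusted p = 0.75 in limma).

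No promoter window was found for Ccnd1 or Ccnd2, so their promoters were not read. Windows of 300 bases were found for the other 7 of the 9 genes, 10 windows in all. None held the E2F consensus (TTTCCCGC, TTTCGCGC, TTTGCCGC or TTTGGCGC), the cell cycle homology region TTTGAA, the cAMP response element TGACGTCA, the AP-1 site TGANTCA or the NF-kB consensus on either strand. Of all windows, 2.26%, 17.9%, 1.79%, 7.81% and 8.46% held these motifs in the order given. The absence concerns these letters in these windows alone. The E-box and the GC box were added after the windows had been read.

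**Figure D2:**
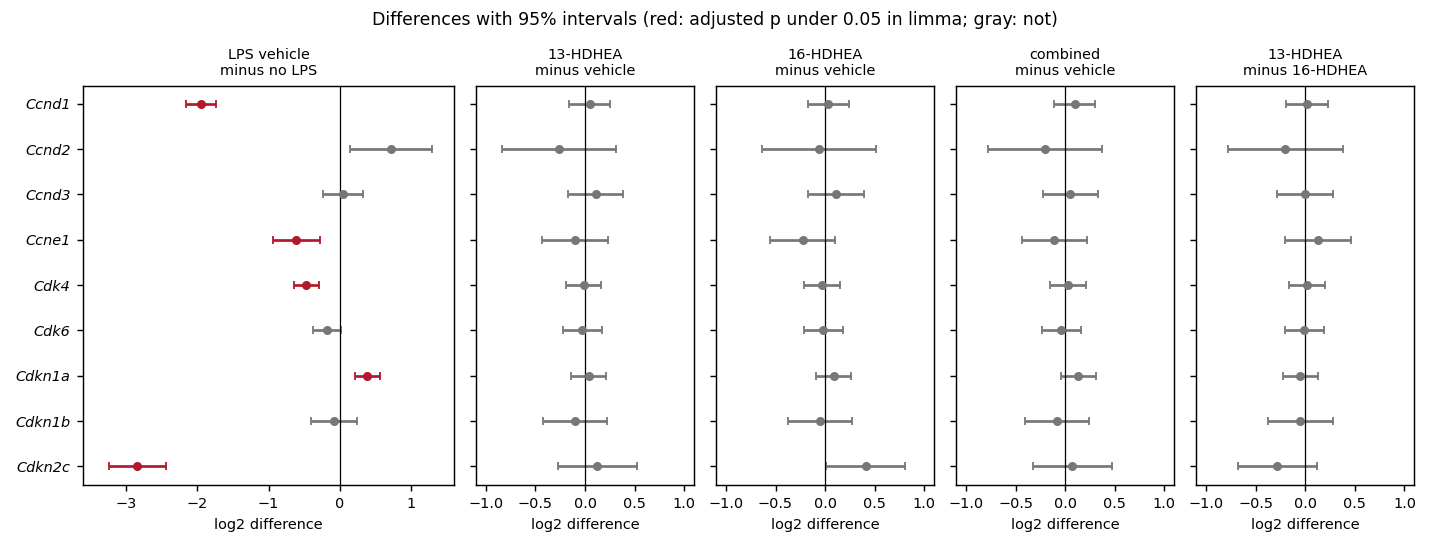
Log2 difference (x axis) with its 95% interval for each of the 9 genes (y axis) in 5 comparisons, 3 arrays a group. Only in the LPS comparison did intervals lie far from 0, down to -3.24 for Cdkn2c, while the interval of Cdkn2c for 16-HDHEA against vehicle began at 0.01. The first panel has a wider x axis than the other 4.

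The same 5 genes passed in each of the other 3 groups with LPS when set against cells without LPS. These comparisons share the 3 arrays without LPS, so they are not independent, and their values are given side by side. Ccnd1 differed by -1.90 with 13-HDHEA, -1.92 with 16-HDHEA and -1.86 with the combined treatment. Cdkn2c differed by -2.72, -2.43 and -2.77 in that order, Ccne1 by -0.71, -0.84 and -0.72, Cdk4 by -0.48, -0.50 and -0.44, and Cdkn1a by 0.42, 0.47 and 0.51. In each of the 3 comparisons 4 genes fell and 1 rose, where 29.7%, 29.4% and 28.9% of all genes tested changed. On all 12 arrays with LPS, Ccnd1 lay between 8.10 and 8.41 (median 8.19), and Cdkn2c lay between 3.71 and 4.57 (median 4.12).

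Ccnd2 was above cells without LPS by 0.46, 0.66 and 0.52 and did not pass in any of the 3 (adjusted p = 0.24, 0.084 and 0.18 in limma). With experiment as a block, it passed with 16-HDHEA (adjusted p = 0.017). Single arrays moved these values widely. Without the array of replicate 1 with 16-HDHEA the difference for 16-HDHEA was 0.84 (adjusted p = 0.0481), and without that of replicate 2, which held the highest value, it was 0.33 (adjusted p = 0.365). Without the low array of replicate 1 that had no LPS, the differences were 0.22, 0.42 and 0.28 for 13-HDHEA, 16-HDHEA and the combined treatment (adjusted p = 0.621, 0.311 and 0.531), and without the array of replicate 2 with the combined treatment its difference was 0.35 (adjusted p = 0.452). On 11 of the 12 arrays with LPS it was above every array without. Cdk6 was lower by 0.21, 0.20 and 0.22 on the log2 scale and did not pass (adjusted p = 0.11, 0.13 and 0.093 in limma). With experiment as a block it passed in all 3 (adjusted p = 0.040, 0.0487 and 0.0321), as it did for the combined treatment without the array of replicate 3 that had no LPS (adjusted p = 0.0447).

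The second question was whether the HDHEAs changed these genes in cells exposed to LPS. No G1 gene passed with 13-HDHEA, 16-HDHEA or the combined treatment against vehicle in limma (0 of 9 in each), where 0.00646%, 0% and 0% of all genes tested passed. At an unadjusted p under 0.05, 0 of 9, 1 of 9 and 0 of 9 were counted, beside 4.27%, 2.97% and 3.48% of all genes tested. The 3 comparisons share the vehicle arrays. Their medians over the 9 genes were -0.01, -0.02 and 0.03 on the log2 scale, and over all genes tested -0.01, 0.00 and 0.00.

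The gene counted was Cdkn2c with 16-HDHEA. Its log2 values were 4.04, 4.19 and 3.71 with vehicle, 4.43, 4.35 and 4.39 with 16-HDHEA, 3.77, 3.97 and 4.57 with 13-HDHEA, and 3.97, 3.92 and 4.27 with the combined treatment. All 3 arrays with 16-HDHEA lay above the vehicle arrays, whereas those of the other treatments overlapped them. How many of all genes tested separated in this way was not counted, so this is not read as particular to 16-HDHEA. These values lay between percentiles 51.5 and 62.8 of all probe sets, near the dim end of an array. The log2 difference for 16-HDHEA was 0.41 (95% interval 0.01 to 0.81, unadjusted p = 0.045, adjusted p = 1.00 in limma). The steps in experiments 1 to 3 measured 0.39, 0.15 and 0.68. Against this, 13-HDHEA gave 0.12 (-0.27 to 0.52) and the combined treatment 0.07 (-0.33 to 0.47). In experiment 3, where the vehicle array was the lowest of the 12, all treatments stood above it, by 0.86, 0.68 and 0.56 for 13-HDHEA, 16-HDHEA and the combined treatment.

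The other genes that LPS lowered or raised did not pass either, and how closely they were measured varied. Ccnd1 differed from vehicle by 0.05 with 13-HDHEA (95% interval -0.16 to 0.26), 0.03 with 16-HDHEA (-0.18 to 0.24) and 0.09 with the combined treatment (-0.11 to 0.30). Each of these intervals excludes a return to the level without LPS. Its arrays were at 8.25, 8.20 and 8.17 with 13-HDHEA, at 8.12, 8.20 and 8.25 with 16-HDHEA and at 8.10, 8.41 and 8.25 with the combined treatment, and all groups overlapped. Cdkn1a differed by 0.04 (-0.14 to 0.21), 0.09 (-0.09 to 0.26) and 0.13 (-0.05 to 0.31), and it was above vehicle in 2, 2 and 3 of 3 experiments. Ccne1 differed by -0.10 (-0.43 to 0.23), -0.23 (-0.56 to 0.10) and -0.11 (-0.44 to 0.22), and Cdk4 by -0.01, -0.03 and 0.03, with intervals that reach 0.18 to either side of the difference.

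The other 4 genes gave differences from -0.26 to 0.11. Ccnd2 had the widest intervals, 0.58 to either side of its differences of -0.26, -0.06 and -0.20. Its precision was thus the lowest of the 9 genes in this fit, which leaves the pairing out. Ccnd3 was above vehicle in 3 of 3 experiments with every treatment, by 0.11, 0.11 and 0.05, and did not pass (adjusted p = 1.00 in limma for each). Its steps in experiment 3 were only 0.002, 0.047 and 0.022, and the 3 comparisons share the vehicle arrays. Among all genes tested, 26.4%, 25.1% and 22.6% had 1 sign in 3 of 3 experiments. Cdk6 differed by -0.03, -0.02 and -0.04 and Cdkn1b by -0.10, -0.05 and -0.08. With the 3 treatments pooled against vehicle, 0 of 9 genes passed (0% of all genes tested) and 0 of 9 had an unadjusted p under 0.05. Differences then ran from -0.18 for Ccnd2 to 0.20 for Cdkn2c.

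The isomers 13-HDHEA and 16-HDHEA were given at the same dose, 5.0 µM, and the same time, which makes them the 1 matched pair of compounds. The position of the hydroxyl group gave no difference that passed for any G1 gene (0 of 9, with 0 of 9 at an unadjusted p under 0.05, where 0.00646% of all genes tested passed). Ccnd1 differed by 0.02 between them (13-HDHEA minus 16-HDHEA, 95% interval -0.19 to 0.22), Cdk4 by 0.01 (-0.17 to 0.19), Cdk6 by -0.01 (-0.21 to 0.19) and Cdkn1a by -0.05 (-0.23 to 0.13). These 4 genes had the narrowest intervals of the 9. Cdkn2c differed by -0.28 (-0.68 to 0.11), Ccnd2 by -0.20 (-0.78 to 0.38), Ccne1 by 0.13 (-0.21 to 0.46), Cdkn1b by -0.05 (-0.37 to 0.28) and Ccnd3 by 0.00 (-0.28 to 0.28). The intervals of Cdkn2c, Ccnd2 and Ccne1 leave room for differences as large as some of the LPS effects above, such as the 0.38 of Cdkn1a. That of Cdkn1b comes close to this size. All these intervals leave the pairing out. The combined treatment held 2.5 µM of each isomer and is not matched to either.

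The rest of the G1 network was described with lists of other genes, in cells with LPS and vehicle against cells without LPS. Among all genes tested, 13.5% rose and 16.3% fell in this comparison. Of 5 other inhibitor genes, 2 fell and none rose. Cdkn3, which encodes a phosphatase that acts on Cdk1 and Cdk2, fell from 7.24 ± 0.0857 to 4.92 ± 0.234 (log2 difference -2.32, adjusted p = 4.2e-07 in limma), and the INK4 gene Cdkn2d fell by 0.59. Cdkn1c (-0.29) and Cdkn2b (0.13) did not pass. A list of 9 genes held other kinases linked to G1 with cyclins and regulators of kinases, and 5 of the 9 did not pass. Cdk2 (-0.64) and Cdc25a (-0.79), the gene of a phosphatase that activates Cdk2, fell. The kinase gene Cdk7 (0.46) and the chaperone gene Cdc37 (0.25) rose. Counts of 2 in each direction in a list of 9 are close to the shares over all genes. The list medians were -0.29 and 0.11, against 0.00 over all genes tested.

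**Figure D3:**
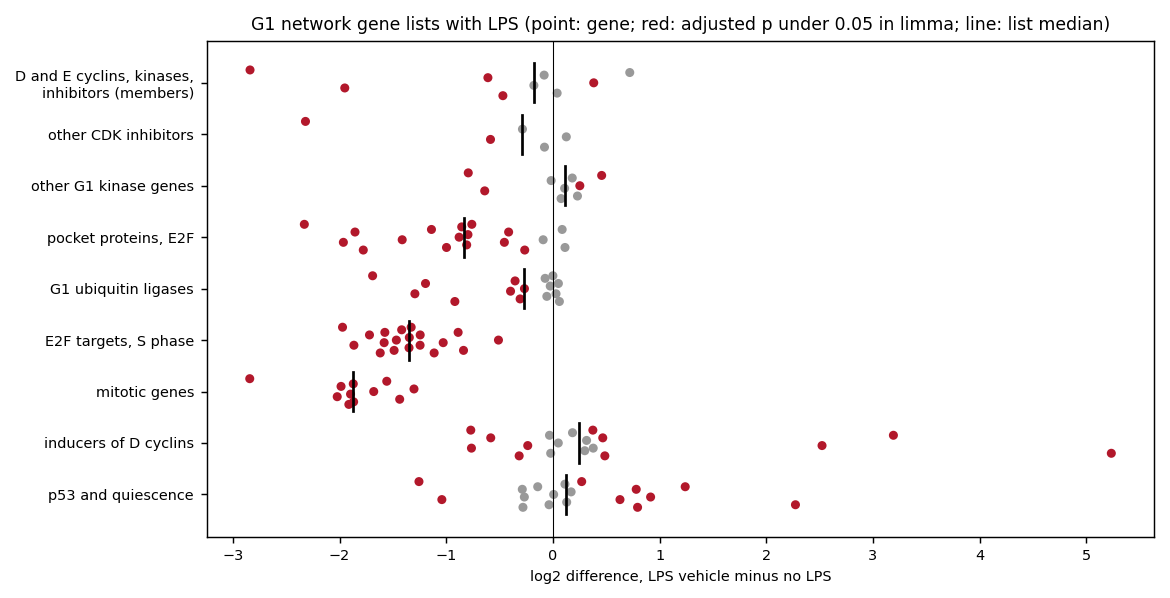
Log2 difference between LPS with vehicle and no LPS (x axis) for each tested gene of 9 lists (y axis), with the list median as a line. All 19 E2F target genes and all 11 mitotic genes fell, and Csf2 and Csf1 lie furthest to the right. The point of Csf2 rests on a level without LPS below the 40th percentile, so it is read only as a rise of at least 5.07.

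Of 18 pocket protein and E2F genes, 15 fell, none rose and 3 did not pass, with a median of -0.83. The retinoblastoma gene Rb1 fell by 0.76 and its relative Rbl1 by 1.41. E2f2 (-1.78) and the repressor gene E2f7 (-1.97) fell further, and so did Tfdp2 (-1.86), the gene of an E2F dimer partner. Of 15 ubiquitin ligase genes that act on G1 and S-phase proteins, 8 fell and 7 did not pass (median -0.27), among them Skp2 (-1.29), whose product marks p27 for degradation, its cofactor gene Cks1b (-0.92), Cks2 (-1.19) and Dtl (-1.69), whose product marks p21 and Cdt1. The list of E2F target and S-phase genes had 20 names, of which 19 were tested, and all 19 fell (median -1.35), with Pola1, a DNA polymerase subunit gene, at -1.25, the single-strand binding protein gene Rpa1 at -1.03, Mcm2 at -1.49 and Mcm5 at -1.62. Of 12 mitotic names, 11 were tested and all 11 fell (median -1.87), with the kinase genes Bub1 at -1.56 and Aurkb at -1.99, Mki67 at -1.87 and Top2a at -1.90.

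Genes upstream of the D-type cyclins and of the inhibitors moved in both directions. Of 18 tested inducer and growth factor genes, 6 rose, 5 fell and 7 did not pass (median 0.24), beside 13.5% and 16.3% of all genes tested that rose and fell. Csf1, the gene of macrophage colony-stimulating factor, rose from 6.30 ± 0.459 (SD, n = 3) to 9.49 ± 0.231, while its receptor gene Csf1r fell by 0.24. Csf2 rose by at least 5.07 on the log2 scale, since its level without LPS lay below the 40th percentile. The immediate early gene Egr1 rose by 2.52 and the AP-1 gene Jun fell by 0.76. Of 18 tested p53 and quiescence genes, 7 rose, 2 fell and 9 did not pass (median 0.12), beside the same shares. Plk3 rose by 2.27, the C/EBP beta gene Cebpb by 1.24 and Mdm2, the p53 ubiquitin ligase gene and a p53 target, by 0.79, while the p53 target Sesn1 fell by 1.04.

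With the HDHEAs, none of the genes of these 8 lists passed against vehicle or between the isomers. Of all genes tested, 0.00646%, 0% and 0% passed with 13-HDHEA, 16-HDHEA and the combined treatment, and 0.00646% between the isomers. The absence of calls is therefore not particular to these lists. List medians stayed between -0.06 and 0.14 on the log2 scale in these 4 comparisons.

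The genes whose pattern over the 5 groups was most like that of a G1 gene were found by the root mean square difference of centred group means, among 13791 candidates. Nearest to Ccnd1 were Fbxo5 (0.030), an inhibitor gene of the anaphase-promoting complex, Pimreg (0.033) and the survivin gene Birc5 (0.035), whose LPS differences were -1.93, -2.01 and -2.02. Nearest to Cdkn2c were the flagellin receptor gene Tlr5 (0.12), the linker histone gene H1f5 (0.15) and the mitotic cyclin gene Ccnb2 (0.15), at a larger distance than for any other G1 gene. Nearest to Ccne1 were Rhno1 (0.021), Rfc1 (0.029), a clamp loader subunit gene, and Oat (0.030). Nearest to Cdkn1a were Ammecr1l (0.016), Alg3 (0.018) and Cep83os (0.020). For the other 5 genes, whose group means spanned at most 0.72, the 3 nearest lay within 0.038. The closest were Zeb1 for Ccnd2, Ergic3 for Ccnd3, Cwf19l1 for Cdk4, Gpatch8 for Cdk6 and Exoc1 for Cdkn1b. The measure rests on 5 group means, which mostly hold 1 contrast, LPS against none.

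Differences between the 3 experiments ran through several of the genes in every group. Experiment 2 was lowest and experiment 3 highest for Ccnd3 in all 5 groups. Experiment 1 was lowest for Cdk4 in all 5, and experiment 2 was highest for Ccnd2 and for Cdkn1b in all 5. For Cdkn1a and Ccnd1 no experiment was lowest or highest in more than 2 groups. The difference between LPS with vehicle and no LPS had 1 sign in 3 of 3 experiments for all 9 genes, as it did for 57.8% of all genes tested. For 16-HDHEA against no LPS this held for 8 of 9, the exception being Cdkn1b.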

How the data were processed

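Total RNA was hybridised to Affymetrix whole-transcript arrays, per the labels' protocols. The authors deposited 1 log2 value for each probe set and array, obtained with RMA (background correction, quantile normalization, probe summary) per the submitters' processing notes. Neither the RMA version nor the chip definition file was given in the sources read. Its quantile step hides shifts shared by most genes. Symbols came from the platform's gene table; 23328 of 23521 probe sets with 1 symbol matched RefSeq of GRCm38.p6, and the probe set with the highest mean was kept. Genes above the array's 40th percentile in at least 3 arrays entered a linear model over 15 arrays (lmFit and eBayes of limma 3.58.1, R 4.3.3), 10 residual degrees of freedom, two-sided, with Benjamini-Hochberg adjustment; the fit was tested on simulated data. Array number limits precision. The members, lists and settings were chosen with earlier results of these data known. Named genes were the members, up to 4 genes a list with the smallest LPS p, and the 3 nearest patterns of each member; Myc, Rb1 and Csf1r and the markers were added after their values were seen. Same-numbered arrays share an experiment identifier; after group means were removed, the 30 such pairs of arrays had correlations of 0.0835 to 0.404, of which 28 exceeded 0.1. Intervals leave this pairing out.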

Additional observations from a re-analysis of the deposited data

How the results depend on the processing

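The 9 comparisons of the 9 genes were repeated under 9 other settings and without each array in turn. The calls of Ccnd1, Ccne1, Cdk4, Cdkn1a and Cdkn2c with LPS held under all 15 of these for LPS with vehicle against no LPS, with the highest adjusted p, 0.0357, for Ccne1. The replicate block added Ccnd2 (6 genes in place of 5) and, in cells with HDHEAs, Cdk6, and changed no other call. Over all 15468 genes tested, the block also raised the number called with LPS and vehicle from 4616 to 5313. With 13-HDHEA and 16-HDHEA against no LPS, that number rose from 4587 to 5274 and from 4548 to 5248. With the combined treatment it rose from 4472 to 5152. Ccnd2 also passed with only the groups compared (adjusted p = 0.0366 in limma), a 60th percentile filter (0.043) and repeated quantile normalization (0.0392). It passed as well with arrays centred on their median (0.0377) and with trend and robust eBayes (0.0467). It did not pass with no filter (0.0777) or the other choices of probe set (0.0584 and 0.0595). Each of the 9 genes had only 1 probe set, so those choices left its differences unchanged and altered only the other genes of the fit. Trend with robust eBayes added Cdk6 for the combined treatment (0.0422). No HDHEA difference from vehicle or between isomers passed in any setting (lowest adjusted p 0.877). Of 1269 repeated values, 1255 kept their side of the threshold and 14 newly passed. These include the other choices of probe set, which could not change a difference of these genes. Among genes that passed in neither fit, 54 values changed sign. Medians over the tested genes were lower by 0.059 to 0.077 in the LPS groups than without LPS, and centring on them turned the split of genes called with LPS and vehicle from 2089 higher and 2527 lower to 2534 and 2082, with 13-HDHEA from 1959 and 2628 to 2573 and 2075, with 16-HDHEA from 2027 and 2521 to 2570 and 2055, and with the combined treatment from 1962 and 2510 to 2519 and 2033. Under centring and repeated quantile normalization the list medians kept their sign, all 19 E2F target genes and all 11 mitotic genes still fell, and 13 pocket protein and E2F genes fell in place of 15. With centring, 8 inducer genes rose and 4 fell in place of 6 and 5. For 13-HDHEA against vehicle 1 gene of all those tested passed, 2 without the vehicle array of replicate 1, and 0 with only the groups compared. Between the isomers the 1 gene that passed was lost with only the groups compared and without replicate 2 or 3 of either isomer. No detection calls were used here, so for Ccnd2, and for Cdkn2c with LPS, closeness to background limits the size of a difference.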
